A study of Mus musculus with 2 samples.

Results

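The 6 genes described here encode short, structured non-coding RNAs that work inside ribonucleoprotein particles (RNPs): Rn7sk, Rpph1, Rmrp, Terc, Rn7s1 and Rn7s2. They were taken by name: a row of the deposited gene tables belonged to the set if its Ensembl identifier, without the version, carries one of the 6 names in GENCODE mouse M21. The names stand on 7 identifiers there, of which 6 had a row, out of 43346 annotated genes in the tables. The other identifier is a lincRNA entry over Rmrp and was not used here. The libraries were total RNA-seq of forebrain from B6NCrl (C57BL/6NCrl) mouse embryos at embryonic day 11.5, and the labels name neither a treatment nor an altered allele. Replicate 1 was made from tissue of 109 embryos and replicate 2 from 88, each a pool of both sexes, so that differences between single embryos cannot be seen. Each library started from 10 ng of RNA above 200 nt with added spike-in RNAs. With a single group of 2 libraries, the design holds no comparison between conditions, and the questions asked here are how high each RNA stood, how well its level was determined and how far the libraries differed.

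Most of these RNAs are made by RNA polymerase III, the enzyme that also makes tRNA and 5S rRNA. Terc is the exception, since RNA polymerase II transcribes it in mammals. None of them ends in a poly(A) tail of the mRNA kind. Rn7sk is 7SK RNA, the scaffold that holds the elongation kinase P-TEFb inactive together with HEXIM proteins. Rn7s1 and Rn7s2 encode 7SL RNA, the scaffold of the signal recognition particle (SRP), which directs ribosomes that make secreted and membrane proteins to the endoplasmic reticulum. Rpph1 is the RNA of RNase P, which trims the 5′ leader from precursor tRNA. Rmrp is the RNA of the related RNase MRP, which acts in ribosomal RNA processing and shares most of its proteins with RNase P. Terc is the RNA template of telomerase. The particles other than telomerase are housekeeping machinery, and dividing neuroepithelium is the main tissue of the forebrain wall at this age.

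The sequences are shown because they set how a read could be assigned. In the tables, the effective length of every transcript of 100 nt or more was its length less 99, so each start position corresponds to a window of 100 bases. For each RNA it was counted how many of its windows also occur, on either strand, in another transcript of the tables. The search covered the 101510 of 103639 transcripts with an M21 sequence, of which 57625 had the same version as in the tables. The sequences are the GENCODE M21 transcripts on GRCm38 (mm10), written 5′ to 3′ with T for U. In Rn7sk and Rmrp, capitals mark bases inside a window shared with a gene outside the 6. In Rpph1, capitals mark the longest direct repeat, and in Terc the telomere template motif CTAACCCT and the ACA box near the 3′ end.
Rn7sk, bases 32 to 331: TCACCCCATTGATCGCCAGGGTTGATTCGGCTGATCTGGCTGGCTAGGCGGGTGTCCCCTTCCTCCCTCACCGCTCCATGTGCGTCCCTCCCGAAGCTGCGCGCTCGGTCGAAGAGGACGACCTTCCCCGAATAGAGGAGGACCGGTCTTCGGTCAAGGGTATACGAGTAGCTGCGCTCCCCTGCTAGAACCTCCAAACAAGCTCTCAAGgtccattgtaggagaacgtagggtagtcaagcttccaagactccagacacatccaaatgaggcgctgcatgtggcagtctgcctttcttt
Rpph1, bases 20 to 319: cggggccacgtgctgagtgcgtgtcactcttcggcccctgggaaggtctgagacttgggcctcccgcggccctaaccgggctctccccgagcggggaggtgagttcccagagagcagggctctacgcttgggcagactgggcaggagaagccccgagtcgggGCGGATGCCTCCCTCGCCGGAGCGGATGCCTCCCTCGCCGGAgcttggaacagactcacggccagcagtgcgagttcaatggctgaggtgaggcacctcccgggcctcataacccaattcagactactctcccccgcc
Rmrp, bases 1 to 271: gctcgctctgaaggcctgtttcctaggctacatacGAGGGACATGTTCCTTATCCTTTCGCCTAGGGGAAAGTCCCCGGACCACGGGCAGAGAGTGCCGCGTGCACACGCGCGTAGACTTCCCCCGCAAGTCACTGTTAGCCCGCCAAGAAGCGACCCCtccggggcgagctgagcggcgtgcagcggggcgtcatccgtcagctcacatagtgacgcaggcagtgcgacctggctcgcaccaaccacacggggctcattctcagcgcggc
Terc, bases 1 to 100: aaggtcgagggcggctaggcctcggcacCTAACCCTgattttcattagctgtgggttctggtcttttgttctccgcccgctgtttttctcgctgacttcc
Terc, bases 324 to 423: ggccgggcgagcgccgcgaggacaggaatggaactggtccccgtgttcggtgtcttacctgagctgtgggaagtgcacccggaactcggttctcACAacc

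Rn7s1 (ENSMUSG00000099021.1, misc_RNA) lies on the plus strand at chr12:69159295-69159594, 108 nt from Rps29 on the other strand. Rn7s2 (ENSMUSG00000099250.1, misc_RNA) lies on the minus strand at chr12:69361182-69361481, with 201587 bases between the 2 genes. Both are annotated at 300 nt. Their annotated sequences differ at 0 bases. All 201 windows of each are present in the other, so that 0 windows were unique. The SRP-related Rn7s6 shares 74 of these windows, between bases 42 and 214, and Gm26461 shares 5, between bases 1 and 104. No stretch of 100 bases within 7SL RNA can therefore be placed on Rn7s1 rather than Rn7s2 by its letters.

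Rn7sk (ENSMUSG00000065037.1, misc_RNA, 331 nt) lies at chr9:78175303-78175633 on the minus strand, 280 nt from the lincRNA gene C920006O11Rik. Of its 232 windows, 90 (38.8%) were unique, and those lie towards the 3′ end. The other 142 occur in Gm24447, and parts of that stretch also in Gm26315 and Gm26035. All 3 of these copies were listed at 0 counts in both libraries. Across the tables, 11 transcripts matched Rn7sk at 90% identity or more over at least 100 nt. They held 4 counts in replicate 1 and 5 in replicate 2, which is 0.656% and 0.532% of the counts of Rn7sk and its copies together. By the same measure, 6 transcripts other than the pair matched 7SL RNA, with 21.1 and 28.7 counts in all, and Rpph1, Rmrp and Terc had 0 such copies.

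Rpph1 (ENSMUSG00000092837.1, ribozyme, 319 nt) lies at chr14:50807449-50807767 on the minus strand, 73 nt from Parp2 on the other strand. The M21 annotation places 233 nt of it inside exons of Ccnb1ip1 on the same strand. All of its 220 windows were unique among the transcripts searched. Ccnb1ip1 was listed at 0 counts in both libraries, but reads from such an exon could not be told apart from Rpph1 reads here. It carries a tandem direct repeat of 21 nt, starting at bases 182 and 203. Rmrp (ENSMUSG00000088088.1, ribozyme, 271 nt) lies at chr4:43492788-43493058 on the minus strand and is the shortest of the 6. A Ccdc107 exon runs across 124 nt of it on the other strand, and 25 of its 172 windows are shared with a Ccdc107 transcript in the opposite direction, which leaves 147 (85.5%) unique. Whether the quantification used strand is not given in the sources used here. Without strand, reads of Rmrp and Ccdc107 could not be told apart inside that stretch. Terc (ENSMUSG00000064796.1, misc_RNA, 423 nt) lies at chr3:96414437-96414859 on the minus strand, and all of its 324 windows were unique. Its template motif occurs once, at bases 29 to 36, and the ACA box occupies bases 418 to 420. RefSeq starts the gene 26 nt further downstream, so that the motif begins at base 3 of that model. Of 7369 transcripts within 50 nt of Terc in length, 51 (0.692%) held the same 8 letters on either strand, so the letters alone do not mark telomerase RNA.

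**Figure D1:**
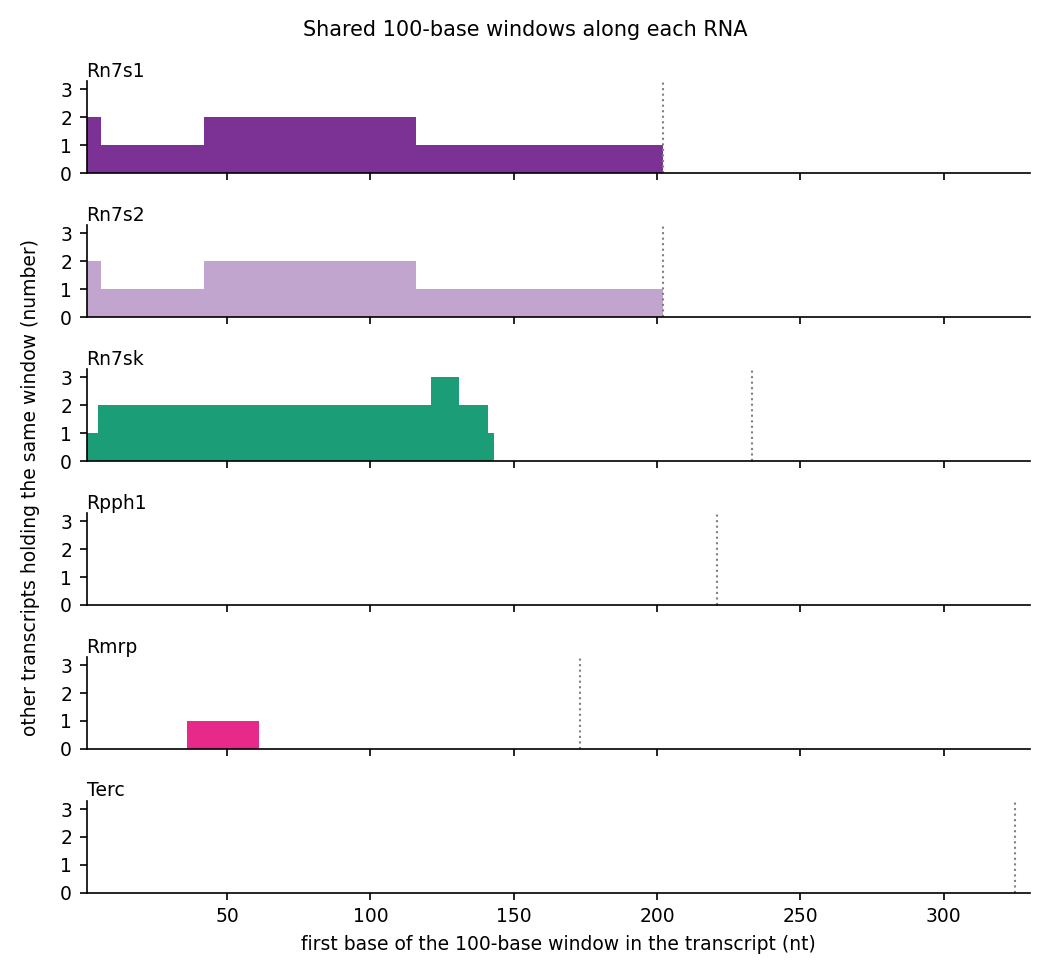
Number of other transcripts searched (vertical axis) that hold the 100-base window starting at each base (horizontal axis, nt) of each RNA, on either strand. The dotted line marks the end of the window starts. The whole of Rn7s1 and Rn7s2 is shared, Rn7sk is shared over its first 142 windows, Rmrp over 25, and Rpph1 and Terc over 0.

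The 6 RNAs spread over more than 3 orders of magnitude in TPM, a transcript level scaled for length and depth. Values for 7SL RNA were among the highest in these libraries, and telomerase RNA lay near 1 TPM. The labels give a SMART-seq protocol, and whether it captured RNAs with and without a poly(A) tail alike was not tested. TPM is therefore not read here as abundance in the tissue. 7SL RNA headed the set. Rn7s1 was listed at 3965 TPM in replicate 1 and 4251 TPM in replicate 2, and Rn7s2 at 3965 and 4250 TPM. The annotated sequences of the copies are identical, so these near-equal values do not show that the copies were level. The sum of the copies does not depend on how reads were divided between them. It does depend on reads shared with Rn7s6 (15.0 and 18.6 counts) and Gm26461 (5.06 and 7.08 counts). The sum was 7930 TPM in replicate 1 and 8502 TPM in replicate 2, a mean of 8216 ± 404 (SD, n = 2). In replicate 1 only Gm42418 and Hbb-y, an embryonic beta globin of red cells, stood above the sum, and in replicate 2 only Hbb-y. The pair took 24372 and 37782 expected counts, 0.105% and 0.112% of all annotated counts. Within the set it held 96.6% of the counts in both libraries.

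7SK RNA came next. Rn7sk stood at 171 TPM in replicate 1 and 182 TPM in replicate 2 (176 ± 7.95, SD, n = 2), from 606 and 934 counts, and ranked 889 among the annotated genes. The libraries lay close together, and the deposited bounds of its level overlapped, at 150 to 177 TPM in replicate 1 and 165 to 188 TPM in replicate 2. These bounds come from a credibility interval in the authors' tables whose level is not stated. The ratio of the 7SL pair to Rn7sk was 46.4 in replicate 1 and 46.7 in replicate 2 (46.6 ± 0.192, SD, n = 2). On this length-scaled measure the ratio hardly differed between the pools. Its SD is that of 2 values and does not cover the width of the Rn7sk bounds given above.

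The RNAs of the RNA-cutting enzymes lay lower. Rpph1, the catalytic RNA of RNase P, stood at 47.6 TPM in replicate 1 and 59.2 TPM in replicate 2 (53.4 ± 8.23, SD, n = 2), from 160 and 288 counts. Replicate 2 was the higher, and the bounds of 39.0 to 53.2 and 51.2 to 64.5 TPM met only at their ends. Rmrp, its RNase MRP counterpart, stood at 34.4 and 29.3 TPM (31.9 ± 3.62, SD, n = 2), from 90.6 and 112 counts, and here replicate 1 was the higher. The bounds of Rmrp overlapped, at 26.8 to 40.6 and 23.6 to 34.3 TPM. Rpph1 exceeded Rmrp 1.38-fold in replicate 1 and 2.02-fold in replicate 2. In replicate 1 the lower bound of Rpph1 lay below the upper bound of Rmrp, and in replicate 2 the bounds were apart. The library values themselves did not overlap, so the order of the 2 RNAs was the same in both pools while its size was poorly determined.

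Terc, the telomerase template, was at the bottom of the set. It stood at 1.01 TPM in replicate 1 and 1.12 TPM in replicate 2, from 5 and 8 counts. Its deposited bounds ran from 0.337 to 2.12 and from 0.486 to 2.03 TPM. The exact 95% Poisson intervals of these counts run from 1.62 to 11.7 and from 3.45 to 15.8, and they cover counting error only. The intervals and the bounds overlapped, and a difference between the libraries was not detectable at this depth. Rmrp lay 34.1-fold and 26.2-fold above Terc. In bulk tissue, expression in few cells and a low level in all cells cannot be told apart, for Terc or for any of the 6.

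From highest to lowest the order was the 7SL pair, Rn7sk, Rpph1, Rmrp and Terc. In each of the 4 neighbouring steps the libraries' values did not overlap. The same order held for the posterior means, for full and RefSeq transcript lengths, and for CPM (counts scaled for depth with no length scaling). Rescaling TPM to the annotated genes and summing transcripts could not change the order, so they are not counted as checks.

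**Figure D2:**
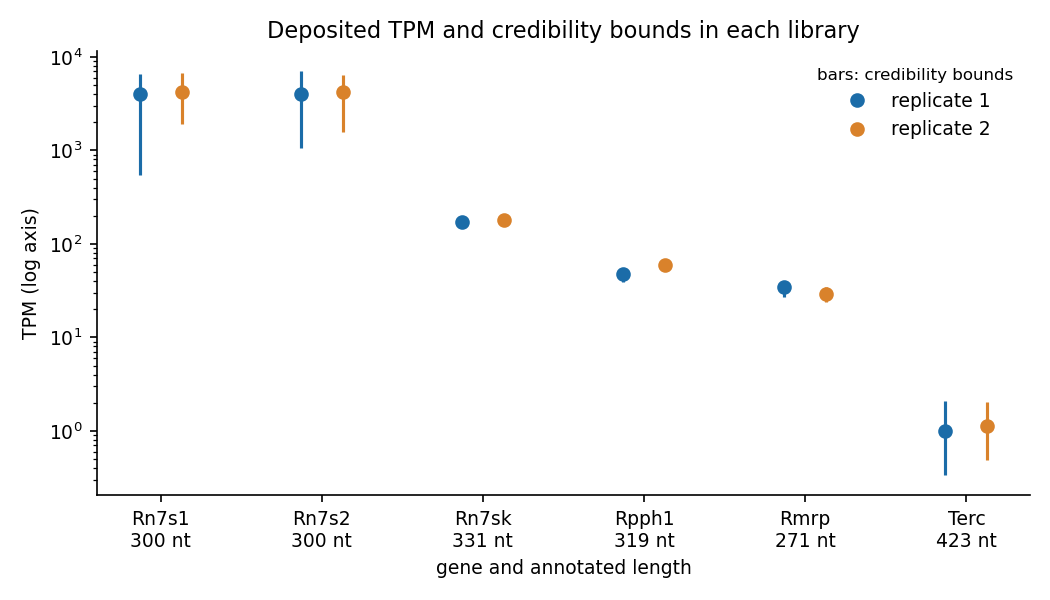
Deposited TPM (points, log axis) of each RNA in replicates 1 and 2, with vertical bars for the deposited credibility bounds, whose level is not stated. Points of the libraries lie close together for each RNA, from about 4108 TPM for each copy of 7SL RNA to 1.01 and 1.12 TPM for Terc, and the bars are long for Rn7s1, Rn7s2 and Terc only.

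How well each level was determined followed the counts for 4 of the RNAs and not for the 7SL pair. The width of the bounds divided by the posterior mean TPM served as a relative width. It was 0.162 for Rn7sk in replicate 1 and 0.130 in replicate 2, 0.308 and 0.230 for Rpph1, 0.411 and 0.370 for Rmrp, and 1.52 and 1.26 for Terc. Each of these lay a little below the median of genes with counts within 2-fold of its own, for example 0.192 and 0.160 for Rn7sk and 1.56 and 1.33 for Terc. Rn7sk did not have wide bounds, although 142 of its 232 windows occur in copies elsewhere. Its posterior SD was 4.44 and 4.37 counts, 0.739% and 0.471% of the posterior mean. This SD does not cover counting error, since it was listed as 0 for Terc at 5 and 8 counts.

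The 7SL copies had the opposite character, with over 10000 counts each and relative widths near those of Terc. Rn7s1 had bounds of 539.6 to 6553 TPM in replicate 1 and 1916 to 6727 TPM in replicate 2, which is a 12.1-fold and a 3.51-fold span. Rn7s2 had bounds of 1051 to 7066 TPM and 1568 to 6378 TPM, a span of 6.73-fold and 4.07-fold. The bounds of the copies overlapped over most of their length in both libraries, so the tables do not order Rn7s1 against Rn7s2. Relative widths were 1.41 and 1.07 for Rn7s1 and 1.78 and 1.27 for Rn7s2, where genes with counts within 2-fold had medians of 0.0486 and 0.0401. Of 514 such genes, 4 in replicate 1 and 5 in replicate 2 were as wide as Rn7s1, itself included.

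The way the counts were split shows the same from another side. The expected counts of Rn7s1 and Rn7s2 differed by 0 in replicate 1 and by 4.01 in replicate 2, so Rn7s1 held 50% of them in each. The posterior means instead gave Rn7s1 55.7% in replicate 1 and 54.4% in replicate 2. A single copy carried a posterior SD of 6079 counts in replicate 1, which is 44.8% of the posterior mean of Rn7s1 and 56.3% of that of Rn7s2. In replicate 2 the SD was 7249.7 counts for Rn7s1, and it came to 35.3% and 42.1% of these means. Between the expected values and the posterior means, the summed counts differed by -0.78 and -1.08, and the summed TPM went from 7930 to 7641 in replicate 1 and from 8502 to 8283 in replicate 2. Counting error of the sum, taken as its square root, was 156 and 194 counts. Only the sum is therefore read as the level of 7SL RNA here.

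**Figure D3:**
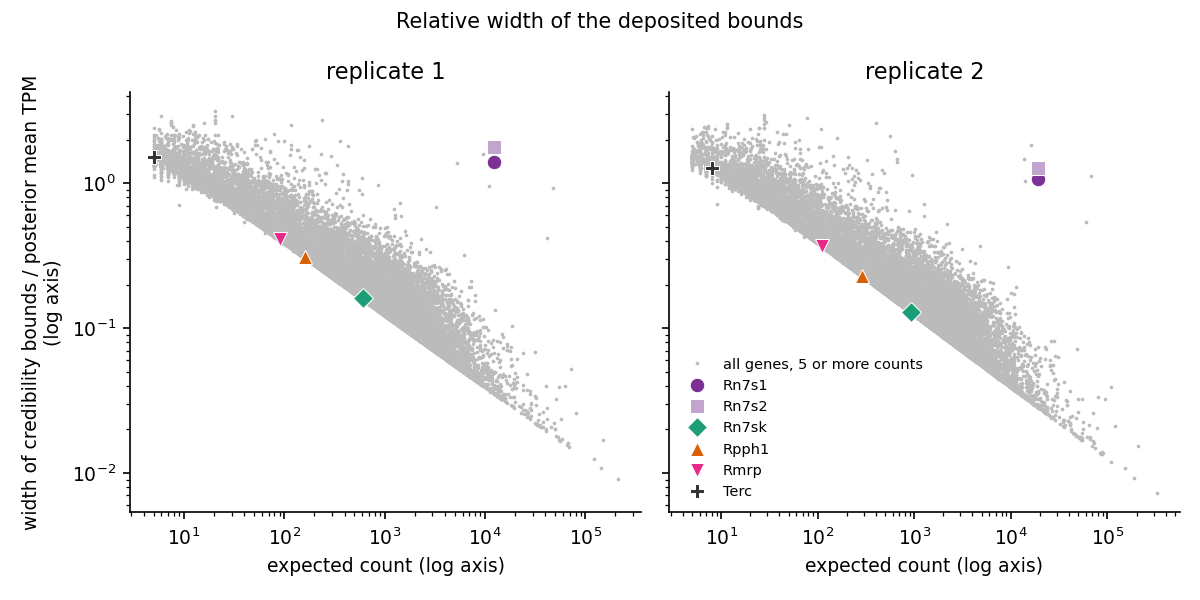
Relative width of the deposited bounds (width over posterior mean TPM, log axis) against expected count (log axis) in replicate 1 and replicate 2, for all genes with 5 or more counts in each library (grey) and the 6 RNAs (coloured). Rn7sk, Rpph1, Rmrp and Terc lie a little below the middle of the grey cloud at their counts. Rn7s1 and Rn7s2 lie far above most genes of like counts, at 1.07 to 1.78.

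For each gene, the rounded counts of the libraries were set against each other in an exact binomial test (two-sided), adjusted by the Benjamini-Hochberg method over 18297 genes. The test compares these libraries, each a pool, and not any conditions. It called 2 of the 6 RNAs at an adjusted p of 0.05, Rn7s1 and Rn7s2, where 22.9% of all tested genes were called (12.4% higher and 10.5% lower in replicate 2). The share called rises with counts, and it was 57% among genes with 10000 or more counts summed, where the pair belongs. The log2 ratio of replicate 2 to replicate 1 was 0.10 for Rn7s1 (exact binomial test, adjusted p = 2.4e-08) and 0.10 for Rn7s2 (adjusted p = 2.65e-08). Because the copies divide a shared pool of reads, these are not independent results. The test also leaves out the uncertainty of that division. The sum of the copies gave the same log2 ratio of 0.10, and it was not tested. Of genes with counts within 2-fold, 29.4% differed by as much as Rn7s1. A further test added a spread between libraries, estimated from these same 2 libraries taken as a single group. That spread holds the differences under test, so few calls from it do not show that the libraries were alike. With a spread between libraries added (edgeR's exact test with a common dispersion, a coefficient of variation of 7.63%), 0 of the 6 were called, where 1.19% of all genes were, with the smallest adjusted p at 0.887 for Rpph1, and 0 had an unadjusted p under 0.05.

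Rpph1 had the largest log2 ratio of the 6, at 0.32, with an unadjusted p of 0.0269 and an adjusted p of 0.0956 by the exact binomial test, and it did not pass. At its counts, 22.0% of 2924 genes differed by as much. For Rn7sk the log2 ratio was 0.10 (adjusted p = 0.419, exact binomial test) and for Rmrp it was -0.23 (adjusted p = 0.511). Of the genes with similar counts, 53.9% differed by as much as Rn7sk and 52.6% by as much as Rmrp. Terc gave a log2 ratio of 0.14 (adjusted p = 1, exact binomial test), less than the median difference of 0.68 among genes of like counts. In all, 5 of the 6 were higher in replicate 2 and Rmrp was lower. The median log2 ratio was 0.10 against 0.01 over all tested genes. Rn7s1 and Rn7s2 both enter this tally although they share a pool of reads, so it does not hold 6 separate results.

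RNA above 200 nt was selected, and the 6 RNAs run from 271 to 423 nt. Among genes of the small non-coding types (snRNA, snoRNA, scaRNA, misc_RNA, ribozyme, rRNA and miRNA), 5739 in all, detection was set at 1 TPM or more in both libraries. All 6 of the RNAs met this cut. Terc met it narrowly, at 1.01 TPM in replicate 1, its bounds reach below 1 TPM in both libraries, and with full length in place of effective length its mean was 0.905 TPM, below the cut. Of the other 275 small non-coding genes in the same span of lengths, 12 (4.36%) were detected and 221 had no count in either library. None of the 275 stood above Rmrp in mean TPM, and 14 stood above Terc. The highest was RF01953, a misc_RNA of 272 nt, at 23.4 and 20.4 TPM. Between 300 and 349 nt, where 4 of the 6 lie, they held 99.9% of the small-RNA counts in replicate 1 and 99.8% in replicate 2.

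Few other small RNAs were detected on either side of the size cut. From 200 to 249 nt, 8 of 86 genes (9.30%) were detected, and from 100 to 199 nt 122 of 3376 (3.61%). All 1925 genes under 100 nt had no count, and transcripts that short have an effective length of 0 in the tables. Among the small RNAs outside the set the highest was Gm22133, a miRNA gene of 109 nt with an effective length of 10, at 3638 and 3141 TPM from 556 and 694 counts. Rn7sk had 606 and 934 counts, more than Gm22133 in each library, and yet a TPM of 171 and 182. Each count was worth 6.54 TPM for Gm22133 in replicate 1 and 0.282 TPM for Rn7sk. For the 6 RNAs the value of a count in replicate 1 ran only from 0.202 TPM (Terc) to 0.380 TPM (Rmrp), so the order among them does not turn on such short effective lengths.

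The next highest small RNAs were Gm27640 (147 nt) at 79.1 and 132 TPM, Gm24157 (111 nt) at 50.6 and 70.3 TPM, Gm25745 (133 nt) at 119 and 0.25 TPM, and Gm27544 (155 nt) at 44.4 and 50.9 TPM. Gm25745 went from 62.0 counts to 0.19 between the pools. Among the 6 RNAs the largest log2 ratio was the 0.32 of Rpph1, and 22.0% of genes at its counts differed by as much.

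**Figure D4:**
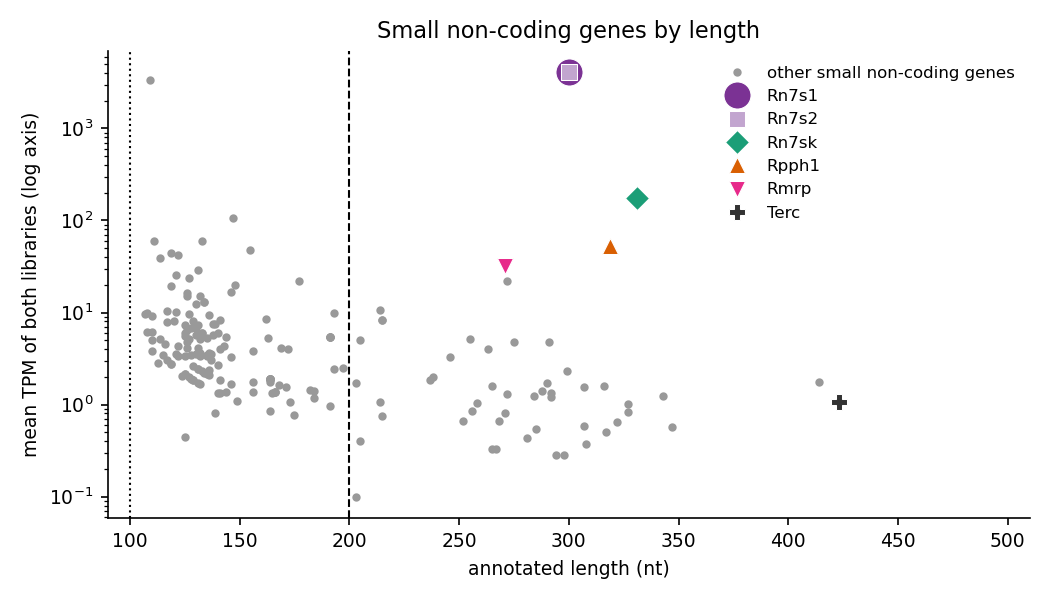
Mean TPM of both libraries (log axis) against annotated length (nt) for small non-coding genes with a value above 0 in both libraries (the longest genes are not drawn). The dashed line marks the 200 nt size cut and the dotted line 100 nt. Rn7s1, Rn7s2, Rn7sk, Rpph1 and Rmrp stand above all other genes of 271 to 423 nt, and Terc lies among them near 1 TPM.

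The protein genes around these RNAs were taken from 6 lists: 36 genes for proteins of the particles and their assembly or receptor, and 32 for RNA polymerase III and its factors. All 68 genes with a row were detected at 1 TPM, where 12581 of 21474 protein-coding genes (58.6%) were. Of the 68, 9 were called higher in replicate 2 and 10 lower, together 27.9%, beside 22.9% of all genes. That test covers counting error only. With a spread between libraries (edgeR's exact test with a common dispersion) 0 of the 68 were called and 1 had an unadjusted p under 0.05, so the calls named below hold against counting error alone.

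All 7 proteins of the 7SK RNP were detected, with a median of 50.7 TPM. Highest was Ccnt2, a cyclin subunit of P-TEFb, at 85.3 and 96.5 TPM. Its kinase Cdk9 stood at 75.9 and 62.7 TPM, and Larp7, which binds and stabilises the 3′ end of 7SK RNA, at 51.9 and 60.0 TPM. By the exact binomial test Ccnt2 and Larp7 were higher in replicate 2, while Cdk9 and the other cyclin Ccnt1 (52.5 and 48.9 TPM) were lower. Hexim1, the inhibitor that acts on P-TEFb when bound to 7SK, was the lowest at 3.08 and 3.62 TPM. Rn7sk thus exceeded Hexim1 55.5-fold and 50.3-fold in TPM, and Larp7 3.29-fold and 3.04-fold. Such ratios, here and below, set RNAs without a poly(A) tail against mRNAs. Whether both kinds were captured alike was not tested, so the ratios do not give the make-up of a particle.

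For the SRP and its receptor, 9 of 11 listed names had a row, and all 9 were detected (median 77.3 TPM). Srp14, which with Srp9 binds the Alu domain of 7SL RNA, was the highest at 190 and 205 TPM. Srp19, which binds the S domain at the other end of 7SL RNA, stood at 133 and 147 TPM, and Srp9 at 112 and 118 TPM. The lowest was Srprb, the membrane subunit of the receptor, at 52.6 and 47.0 TPM. Srp19 and the GTPase subunit Srp54a (71.0 and 83.5 TPM) were called higher in replicate 2, and Srprb and the receptor subunit Srpr (71.5 and 68.7 TPM) lower. The 7SL pair exceeded Srp14 41.8-fold and 41.4-fold and Srp72 142-fold and 141-fold.

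RNase P and RNase MRP share most of their proteins, and 11 of 11 were detected (median 46.7 TPM). Pop4 stood at 120 and 119 TPM, Rpp30 at 83.6 and 85.7 TPM and Pop5 at 78.2 and 83.2 TPM. Rpp25 was the lowest at 2.78 and 1.16 TPM, and it was called lower in replicate 2 (log2 ratio -1.24, adjusted p = 0.00116, exact binomial test) from 53 and 32 counts. With edgeR's exact test its adjusted p was 0.0575. Rpp38 (16.0 and 20.7 TPM) was called higher. Rpph1 and Rmrp, at 53.4 and 31.9 TPM, lay within the range of their proteins. Against Pop1, the largest shared subunit, Rpph1 stood 2.996-fold and 4.05-fold higher and Rmrp 2.17-fold and 2.004-fold higher.

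All 9 telomerase proteins were detected (median 33.3 TPM), beside the 5 and 8 counts of Terc. The box H/ACA proteins Dkc1 (136 and 127 TPM), Nop10 (124 and 139 TPM, called higher in replicate 2) and Nhp2 (130 and 121 TPM) were the highest, and they also serve the many other H/ACA RNAs. Tert, the catalytic protein, was the lowest at 4.01 and 3.53 TPM. In TPM, Terc stood at 0.252 of Tert in replicate 1 and 0.317 in replicate 2. It was the only one of these RNAs below the mRNAs of all its listed proteins, and equal capture was not tested here either.

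RNA polymerase III transcribes most of these RNAs. All 13 of its subunit genes were detected (median 28.0 TPM), led by Polr1c (93.8 and 88.8 TPM) and Polr1d (90.4 and 86.7 TPM), which RNA polymerase I also uses, and Polr3k (78.1 and 80.6 TPM). Polr3g was the lowest at 11.2 and 11.8 TPM. Polr3f (26.9 and 29.1 TPM) and Polr3gl (17.4 and 22.4 TPM) were called higher in replicate 2, and Polr3d (33.2 and 28.5 TPM) was called lower. Of 20 listed polymerase III factors 19 had a row, and all were detected (median 34.8 TPM). Ssb, the La protein that binds the 3′ ends of new polymerase III transcripts, was the highest at 314 and 333 TPM and was called higher in replicate 2. Maf1, a repressor of polymerase III, followed at 160 and 142 TPM and was called lower, as were the snRNA-promoter factor Snapc2 (60.6 and 51.5 TPM) and the activator Zfp143 (25 and 22.0 TPM). Gtf3a, which starts 5S rRNA transcription, stood at 89.4 and 94.0 TPM. Brf2, which serves promoters of the 7SK and RNase P type, was the lowest at 14.0 and 16.0 TPM.

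**Figure D5:**
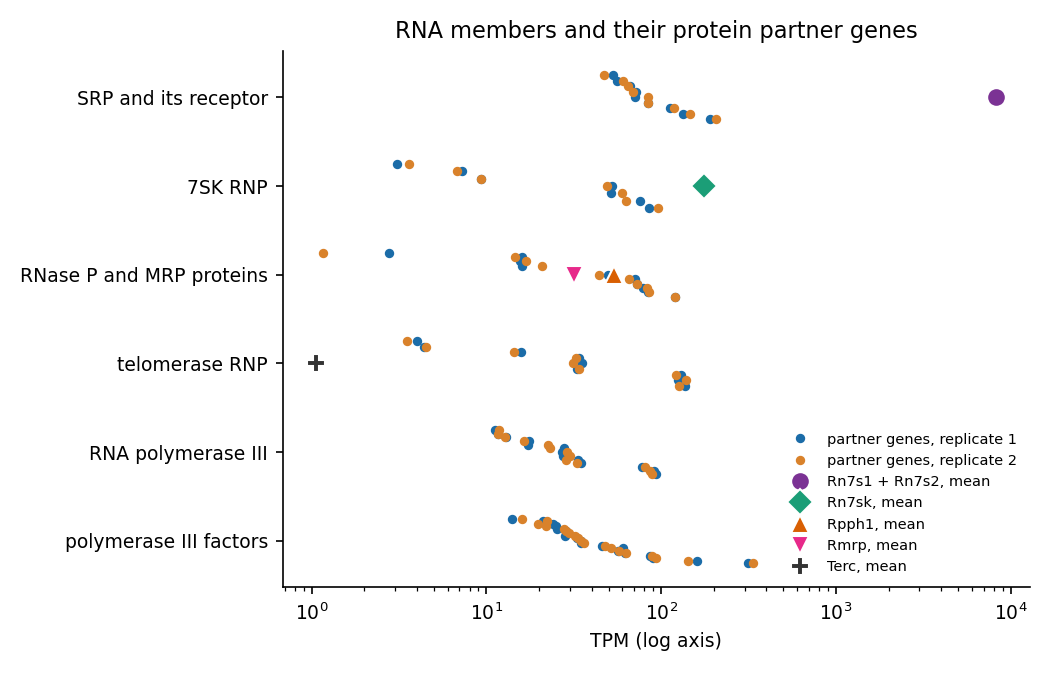
TPM (log axis) of the listed protein genes in replicates 1 and 2 (small points, a pair per gene, ordered by level within each list), with the mean TPM of the RNA of each particle (large symbols). The 7SL sum and Rn7sk lie above all proteins of their particles, Rpph1 and Rmrp among them, and Terc below them.

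Over the whole tables, annotated genes held 23165260 expected counts in replicate 1 and 33597028 in replicate 2, and spike-ins took 5.66% and 5.49% of all counts. All 6 forebrain markers were detected, from 13.7 to 147 TPM, and 0 of 4 Hox genes of the hindbrain and trunk, with 1 count in all. Markers of red cells (3 of 3), mesenchyme (2 of 2), endothelium (2 of 2) and microglia (2 of 2) were detected too, with Hbb-y at 8076 and 8726 TPM. The part of each cell type in the levels of the 6 RNAs was not tested.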

How the data were processed

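Both libraries belong to a single group, so no groups were compared. Per the labels, RNA was extracted with mirVana and libraries followed a SMART-seq protocol. Alignment used mm10 and quantification GENCODE M4, per the text notes deposited with the files. No source used here gives the aligner, the quantifier or the level of the credibility interval. The deposited expected counts are the authors' estimates of reads per gene after shared reads are divided, so fractions occur. The deposited TPM were scaled by the authors over every entry, with spike-ins at 13.0% and 12.7% of the total. The deposited FPKM gave no result here.

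Names, types, coordinates and sequences came from GENCODE M21 (GRCm38) by stable identifier, for 42462 of 43346 genes and 101510 of 103639 transcripts (97.9%). Spike-ins (97) and numeric identifiers (26248) entered no test. Copies were found with BLAST+ 2.17.0, and RefSeq lengths came from GRCm38.p6. Counts were rounded, scaled by TMM (edgeR 4.0.16, R 4.3.3) and tested with an exact binomial test (scipy 1.17.1) over genes with 10 or more counts summed. That test was also run on simulated counts. Unlike the libraries, these held counting error and no spread between libraries, so they check the computation only. Log2 ratios used a prior of 0.5 counts. DESeq2 1.42.0 gave alternative size factors. The common dispersion of edgeR's exact test was estimated from the same 2 libraries taken as a single group, so it holds the differences under test. Intervals cover counting error only.

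The labels call the replicates biological. The genes, lists and tests were chosen with earlier results of these data known. Srp54b, Srpra and Gtf3c2 had no row by name. Of each protein list the text names the 3 highest, the lowest and any gene called between the libraries, and of other small RNAs the 5 highest. Some items that this rule takes are not reported here. Genes that overlap or copy one of the 6 RNAs are named with it. Gm42418, RF01953, Srp72 and Pop1 were named after their values were seen.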

Additional observations from a re-analysis of the deposited data

How the results depend on the processing

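No paired analysis was possible because there is a single group of 2 libraries. The ratio of the 7SL pair to Rn7sk, 46.6, was 46.8 from posterior mean TPM and 40.3 from CPM, and 46.4 to 46.7 with either replicate left out. Full length in place of effective length gave 44.5 and RefSeq lengths 47.0; these 2 settings were chosen after seeing the data. The 2 calls among the RNAs (Rn7s1 and Rn7s2) became 0 under edgeR's exact test with a common dispersion, and the 4187 calls over all genes became 218. Posterior mean counts moved the share of Rn7s1 in the pair from 50% to 55.0%. Small non-coding genes of 200 nt or more detected at 1 TPM numbered 30, and 53 with 1 count and 10 at 5 TPM in both libraries; with a replicate left out they numbered 36 to 38. The cause of these changes was not tested. No result reversed its direction. Scaling by DESeq2 size factors, total counts or spike-ins and both count filters kept the number of RNAs called at 2. A prior of 5 counts enters the log2 ratios only and not the binomial test, so it could not change the calls. Of the protein partners, 68 were detected at 1 TPM and 64 at 5 TPM. Their 19 calls between the libraries became 0 under edgeR's exact test. Terc rested on 5 and 8 counts, and its mean of 1.06 TPM was 0.905 with full length. A 100-count minimum leaves no value for Terc.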
